A study of Mus musculus with 141 samples.

Results

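Growth hormone and IGF axis genes were examined in iWAT (inguinal subcutaneous fat) of the HMDP, the Hybrid Mouse Diversity Panel of inbred and recombinant inbred strains. They were chosen by name as 10 of the 36558 genes listed: *Ghr*, *Stat5b*, *Socs2*, *Cish*, *Igf1*, *Igf1r*, *Igfbp2*, *Igfbp3*, *Igfbp4* and *Igfbp5*. RNA-seq libraries came from 67 females and 74 males of 82 strains (1 library for each combination). For 59 strains the sexes could be matched, while 8 strains were represented by females alone and 15 by males alone. All mice had been switched at 8 weeks of age to the HF/HS diet (high in fat and sucrose), were kept on it for 8 weeks and were fasted for 4 h before collection, so there was no group on a control diet. Strain names were the only source of genotype, and BTBR T<+> tf/J and BXD24/TyJ-Cep290<rd16>/J are the names that give alleles. The groups compared were therefore female and male mice, and strain families: BXD (32 female and 34 male libraries), AXB/BXA (9 and 11), BXH (2 and 3), CXB (3 and 3) and the other inbred strains (21 and 23). A library is 1 sample of its strain, and strain differences include whatever differed between single mice.

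Growth hormone binds its receptor GHR, which activates the kinase JAK2 and the transcription factors STAT5A and STAT5B. STAT5 switches on *Igf1*, the secreted growth factor, and also *Socs2* and *Cish*, whose products damp the same receptor. IGF1 acts through the receptor tyrosine kinase IGF1R, and the IGF binding proteins carry IGF1 in blood and tissue fluid, prolong its life and can either hold it back from the receptor or deliver it. Adipose tissue is known to respond to growth hormone with lipolysis and to make IGF1 locally.

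*Igfbp2* (chromosome 1, 72824503 to 72852474, plus strand) and *Igfbp5* (chromosome 1, 72857932 to 72874884, minus strand) are neighbours that point towards each other, in GRCm38 coordinates. *Stat5b* (chromosome 11, 100780731 to 100850724, minus strand) lies beside its close paralog *Stat5a* (100859351 to 100885169, plus strand), and kallisto divides reads that match both paralogs by estimation. The other 7 genes are *Ghr* on chromosome 15, *Socs2* and *Igf1* on chromosome 10, *Cish* on chromosome 9, *Igf1r* on chromosome 7, and *Igfbp3* and *Igfbp4* on chromosome 11. All 10 are protein-coding.

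The palindromic letters TTCNNNGAA, the core that STAT5 dimers are known to recognise, were searched in promoter windows of 300 bases, 250 before and 50 after the RefSeq start of a gene on GRCm38.p6. The motif reads the same on both strands. Windows were given for 9 of the 10 genes (all but *Socs2*), and among these 9 only *Cish* held the motif. Its window is shown because it held the motif in 2 copies that do not overlap, beginning 1 and 12 bases from the start site counted as base 1, at chr9:107296654-107296683 on the plus strand, with the motifs in capitals:
*Cish*: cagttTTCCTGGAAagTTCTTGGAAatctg
Of all 32851 windows of this length, 8.3% held at least 1 copy and 0.457% held 2 or more. A match is a match of letters only.

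Libraries held 6269154 to 78562648 estimated counts (median 30233245). Adipocyte markers (*Adipoq*, *Plin1*, *Plin4*, *Cidec*, *Fabp4*) summed to 5445 to 61550 TPM in females and 12048 to 63720 TPM in males, and none of the 5 was at 0 in every library. Lymphocyte markers (5 T and B cell genes, *Cd3e* and *Ms4a1* among them) divided the libraries into 2 sets, with 35 female and 44 male libraries at 89.7 summed TPM or less (median 7.47) and 32 female and 30 male libraries at 129 or more (median 445). Both libraries were low in 21 of the 59 matched strains, both were high in 16, and the sexes differed in 22. Of these 22, the female library was the high one in 15 and the male library in 7, so the sets were not balanced between the sexes. Each comparison was therefore also made within the low and the high strains or libraries. Of the libraries labelled female, BXD34/TyJ (the shallowest, with 29.9% of its counts mitochondrial) and BXD69/RwwJ carried Y-linked expression, and the NZW/LacJ library labelled male lacked it. Only NZW/LacJ is a matched strain. BXD34/TyJ and BXD69/RwwJ fell in the low set, so every value over the 35 low female libraries includes them. The lowest median correlations with libraries of the same label were those of BXD34/TyJ (0.639), the female AXB12/PgnJ (0.832), the NZW/LacJ library labelled male (0.850) and the female BXD38/TyJ (0.873).

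TPM values are scaled by transcript length and can be compared between genes. *Ghr* was the most abundant of the 10 genes in both sexes. The female libraries ranged from 117.4 TPM (AXB12/PgnJ) through a median of 530 to 1083 (BXA8/PgnJ), and the male libraries from 178 (the NZW/LacJ library labelled male) through 712 to 1220 (AKR/J). In females *Igfbp5* (median 260 TPM) and *Igfbp4* (208) followed, but *Igfbp5* was above *Igfbp4* in only 43 of 67 libraries, so this order lay within the spread. In males the order was turned, with *Igfbp4* (263) above *Igfbp5* (132.6) in 70 of 74 libraries. *Igf1* came next, then *Igfbp3*, *Stat5b* and *Socs2* in both sexes. The mean log2 ratio of *Stat5b* to *Socs2* was 0.15 ± 0.47 (SD, n = 67) in females and 0.25 ± 0.38 (SD, n = 74) in males, so these neighbours were not separated. The receptor *Igf1r* was expressed far below its ligand, with medians of 6.06 TPM in females and 4.47 in males against 91.5 and 107.2 for *Igf1*. In males *Cish* lay at a like level, above *Igf1r* in 35 of 74 libraries, while in females *Igf1r* was above *Cish* in 50 of 67. *Igfbp2* was lowest, and in males much lower than any other gene of the 10.

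**Figure D1:**
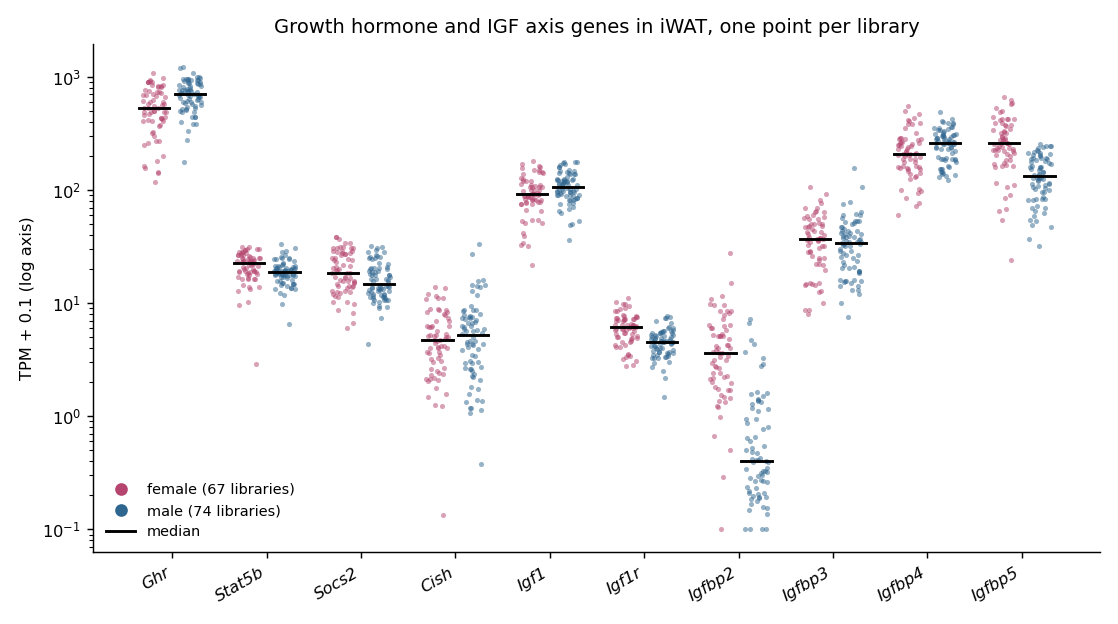
TPM + 0.1 on a log axis for the 10 genes, with 1 point per library (67 female, 74 male) and a black bar at the median. *Igfbp2* and *Igfbp5* show the clearest shift between the sexes, with medians of 3.55 against 0.306 TPM and 260 against 132.6 TPM. *Cish* and *Igfbp3* overlap widely.

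The sex comparison asked whether female and male libraries of the same strain differed over the 59 matched strains, with log2FC given as female vs. male. Binding protein genes and receptors moved in both directions. *Igfbp5*, *Igf1r*, *Socs2* and *Stat5b* were higher in females, and *Ghr*, *Igf1* and *Igfbp4* were higher in males (edgeR quasi-likelihood test, adjusted p under 0.05). *Cish* and *Igfbp3* did not pass. *Igfbp2* passed the filter on low counts only through the female libraries (59 of 59 reached its cutoff, against 22 of 59 male libraries). A gene kept in that way had to differ, so its difference is given as a description and it is left out of the counts. Of the 9 other genes 4 were called higher in females, where 28.4% of all 16765 genes tested were, and 3 lower, where 29.8% were. The median log2FC of these 9 genes was 0.15 and that of all genes 0.01. Scaling moved the balance of calls over all genes. With TMM 48.8% of the called genes were higher in females, with library totals 72.8% (median log2FC of all genes 0.12) and with log2(TPM + 1) 65.04%, while the 7 calls among the 9 genes kept their direction under each.

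*Ghr*, the receptor, had a lower level in females than in males. In matched strains its CPM ranged in females from 165 through a median of 878 to 1700, and in males from 310 through 1298 to 2005. Most values of the sexes overlapped. At the low end 4 female libraries lay below every male one, and 17 did without NZW/LacJ, whose library labelled male was the lowest. At the high end 10 male libraries lay above every female one. The male level was higher in 45 of 59 strains, and the log2FC was -0.49 (SE 0.116, adjusted p = 0.000237), a 1.41-fold male excess. The strain with the largest female excess was NZW/LacJ (2.10 on the log2 scale), whose library labelled male lacked Y-linked expression. Without each strain in turn the mean within-strain difference stayed between -0.56 and -0.47. In the 21 strains low in lymphocyte markers the log2FC was -0.23 (adjusted p = 0.0307), and in the 16 high strains -0.53 (adjusted p = 0.0159).

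*Stat5b*, the transcription factor downstream of the receptor, was slightly higher in females. Female CPM ranged from 54.4 through 80.4 to 133.1 and male CPM from 54.04 through 72.4 to 104.2. The ranges overlapped almost wholly, and 1 female library (BXD79/RwwJ) lay above all males (2 without NZW/LacJ). The female level was higher in 43 of 59 strains, and the log2FC was 0.15 (SE 0.0295, adjusted p = 1.66e-05). The female BXD79/RwwJ library also held the most skeletal muscle marker RNA (12233 summed TPM), and the mean within-strain difference without that strain was 0.13. In the low and high strains the log2FC was 0.17 and 0.15, past the threshold in each.

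*Socs2*, which encodes a feedback inhibitor of growth hormone signalling, was higher in females, with CPM from 9.04 through 25.1 to 48.6 in females and from 10.5 through 19.5 to 40.5 in males. The log2FC was 0.32 (SE 0.0758, adjusted p = 0.000242), and the female level was higher in 45 of 59 strains. In the low strains the log2FC was 0.34 (adjusted p = 0.00394), and in the high strains it was 0.19 and did not pass (adjusted p = 0.148). *Cish*, the other STAT5-induced feedback gene, showed no call in either direction. Its CPM ranged from 3.77 through 12.97 to 45.5 in females and from 1.95 through 12.8 to 106.1 in males, where CXB13/HiAJ was highest. The log2FC was 0.01 (SE 0.155, adjusted p = 0.943), and the within-strain difference ran from -3.12 in BXD40/TyJ to 3.21 in AXB13/PgnJ. In the low strains the female level of *Cish* was higher in 17 of 21, with a log2FC of 0.43 (adjusted p = 0.0783).

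*Igf1*, the ligand, followed *Ghr* in direction. Female CPM ranged from 73.3 (MA/MyJ) through 217 to 410 (I/LnJ) and male CPM from 95.1 (NZW/LacJ) through 275 to 490 (BXA7/PgnJ). The male level was higher in 44 of 59 strains, and the log2FC was -0.35 (SE 0.0863, adjusted p = 0.000471). This difference was not seen in every set of strains. In the low strains the median was 304 CPM in females and 285 in males, the male level was higher in 13 of 21, and the log2FC of -0.08 did not pass (adjusted p = 0.381). In the high strains the log2FC was -0.35 (adjusted p = 0.0167), with the male level higher in 14 of 16. Whether the sex difference in *Igf1* itself differed between these sets was not tested.

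*Igf1r*, the receptor of IGF1, went the other way. Female CPM ranged from 28.03 through 46.5 to 92.04 and male CPM from 23.9 through 35.9 to 58.6, and 8 female libraries lay above every male one. The highest male value was that of NZW/LacJ, and without this strain 23 female libraries lay above every male one. The female level was higher in 52 of 59 strains, and the log2FC was 0.41 (SE 0.0459, adjusted p = 1.88e-11). The strain with the largest male excess was again NZW/LacJ (-0.36), and the strain with the largest female excess was AXB13/PgnJ (1.40). The log2FC was 0.39 in the low strains and 0.55 in the high strains, where the female level was higher in 16 of 16.

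*Igfbp2*, a carrier of IGF in blood, was low in both sexes. Male values were near the limit of detection, with 3 counts or fewer in 22 of 74 male libraries (0 in 4) against 2 of 67 female libraries (0 in 1). Both of these female libraries, BXD34/TyJ and BXD69/RwwJ, were those with Y-linked expression. In matched strains female CPM ranged from 0.378 through 2.40 to 16.1 (KK/HlJ) and male CPM from 0 through 0.246 to 7.13 (SJL/J). The male median was not far above the 0.0992 CPM that 3 counts are worth at the median depth. The female level was higher in 53 of 59 strains, with mean CPM of 3.01 ± 2.56 against 0.679 ± 1.24 (SD, n = 59 each) and a fitted log2FC of 2.94 (SE 0.304). No test is given, for the reason above. The log2FC depended on the setting, from 1.53 to 3.73 over the alternatives tried, and a filter of at least 10 counts in every library removed the gene. It was 3.73 in the low strains and 1.93 in the high strains.

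Mammary epithelial markers, which also differ between the sexes in this fat pad, moved with *Igfbp2*. All 9 of these markers (the keratins *Krt5*, *Krt8*, *Krt14* and *Krt18*, the junction genes *Cldn3*, *Cldn7* and *Epcam*, and the secretory genes *Csn3* and *Wfdc18*) were higher in females and, like *Igfbp2*, passed the filter on low counts only through the female libraries. Their summed levels were 1.70 to 4572 TPM in females (median 582) and 0.380 to 554 TPM in males (median 3.33), and none was at 0 in every library. The lowest female and the highest male value came from libraries whose Y-linked expression went against the label, and without such libraries the ranges were 98.1 to 4572 TPM in females and 0.380 to 285 TPM in males. The female library with the most *Igfbp2*, KK/HlJ (27.9 TPM), also had the most mammary marker RNA. The NZW/LacJ library labelled male, with the most mammary marker RNA of the libraries labelled male, had 6.57 TPM of *Igfbp2*, the second highest of them. The male library with the most *Igfbp2*, SJL/J (7.12 TPM), had only 3.18 summed TPM of mammary markers, below the male median, so the order of the markers and that of *Igfbp2* differed among males. Over libraries low in lymphocyte markers, the log2 level of *Igfbp2* had, as a description, a Pearson's r of 0.60 with the mammary score in 35 females and 0.36 in 44 males. These females include BXD34/TyJ (0 TPM of *Igfbp2*, 24.3 summed TPM of mammary markers) and BXD69/RwwJ (0.192 and 1.70 TPM). Both carried Y-linked expression and were lowest on both measures, and r without them is not given. The part of mammary tissue in the sex difference was not tested, and in bulk tissue fewer cells of a type and less RNA per cell cannot be told apart.

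*Igfbp5*, a matrix-associated binding protein, was the most separated of the abundant genes. Female CPM ranged from 230 through 1037 to 2806 and male CPM from 190 through 567.8 to 1074, and 28 of 59 female libraries lay above every male one. Mean CPM came to 1217 ± 600 in females against 598 ± 222 in males (SD, n = 59 each), with a log2FC of 0.96 (SE 0.118, adjusted p = 3.42e-10) and a higher female level in 54 of 59 strains. The 5 exceptions included AXB12/PgnJ (-1.12). The log2FC was 0.85 in the low strains and 1.32 in the high strains. Stromal progenitor markers (*Pdgfra*, *Dcn*, *Col1a1*, *Pi16*, *Dpp4*), of which 2 of 5 were higher in females, moved with *Igfbp5* over low libraries, with r of 0.48 in females and 0.73 in males. Its r with the mammary epithelial markers was 0.55 in females, above that with the stromal markers, and 0.31 in males. The part of either cell type in the sex difference of *Igfbp5* was not tested.

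*Igfbp4* and *Igfbp3* completed the binding proteins. *Igfbp4*, an inhibitory carrier, had CPM from 132.02 through 360 to 916 in females and from 229 through 444 to 796 in males, with a higher male level in 44 of 59 strains and a log2FC of -0.30 (SE 0.0766, adjusted p = 0.000575). As with *Igf1*, the log2FC in the low strains was small (-0.06, adjusted p = 0.676) and that in the high strains was -0.41 (adjusted p = 0.00990). *Igfbp3*, the principal carrier of IGF1 in blood, had CPM from 18.1 through 57.4 to 144 in females and from 18.3 through 52.01 to 110 in males. The groups overlapped widely, with a log2FC of 0.18 (SE 0.109, adjusted p = 0.152). *Igfbp3* passed the threshold only when library totals replaced TMM (0.29, adjusted p = 0.0385). Of the 9 genes other than *Igfbp2*, 4 were called higher in females in the low strains (background 18.1%) and 1 lower (19.8%), and in the high strains 3 higher (18.2%) and 3 lower (18.6%).

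**Figure D2:**
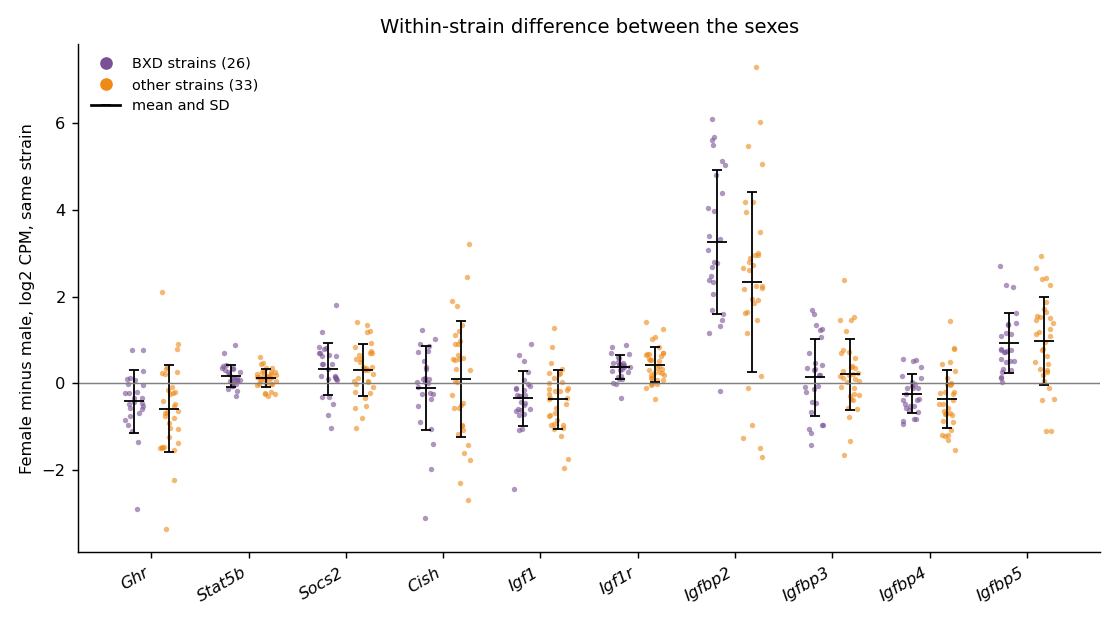
Female minus male log2 CPM within a strain for each gene, with 1 point per strain, for 26 BXD strains and 33 other strains. Bars give the mean and SD. *Igfbp2* and *Igfbp5* lie above 0 in 53 and 54 of 59 strains, *Ghr* and *Igf1* mostly below it, and *Cish* spreads widely on both sides.

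Adipocyte markers stood lower in females (5 of 5), as did macrophage (4 of 4) and endothelial markers (3 of 3), whereas 0 of 5 lymphocyte and 0 of 4 skeletal muscle markers passed. Over all genes tested 29.8% were lower in females and 28.4% higher. *Ghr* went with the adipocyte markers over low libraries, with r of 0.70 in females and 0.41 in males, and so did *Igfbp4* (0.47 and 0.29). *Socs2* (-0.69 and -0.23), *Igf1r* (-0.59 and -0.46) and *Igfbp5* (-0.34 and -0.40) went against them. The lymphocyte sets differed in several of the 10 genes, given here as medians. *Ghr* was at 697 TPM in low and 425 in high female libraries, and at 824 and 555 in male libraries. *Socs2* was at 14.1 and 26.8 TPM in females and at 12.6 and 21.4 in males, the opposite direction. *Igfbp5* was alike in females (262 and 253 TPM) but not in males (162 and 96.3). What part these cell types have in the sex differences was not tested.

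The sex difference was next compared between 26 BXD strains and 33 other strains through an interaction term. None of the 10 genes passed (edgeR, adjusted p), and neither did any other gene (percent called 0). At an unadjusted p under 0.05 there were 0 of the 10 genes and 314 of 16765, and limma-voom gave 0 adjusted and 1 unadjusted call among the 10. *Igfbp2* had a log2FC of 3.52 ± 0.453 (SE) in BXD and 2.47 ± 0.397 in the others, a difference of 1.05 ± 0.597. This is a description only, since the gene passed the filter through female libraries alone. Over all 34 male BXD libraries its median was 0.223 TPM and its lowest value 0, so these log2FC values rest on male levels near the limit of detection. For *Igfbp5* the values were 0.93 ± 0.176 and 0.99 ± 0.160. A female excess of *Igfbp5* was present in 26 of 26 BXD strains and 28 of 33 others.

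To place the 10 genes in their pathway, 4 further lists were taken through the same test. Of all genes tested, 28.4% were called higher in females and 29.8% lower, which is the background for the counts of all 4 lists. Of 11 other genes of growth hormone receptor signalling, 6 were higher in females, 2 lower and 3 did not pass, with a median log2FC of 0.20. *Prlr*, the receptor for prolactin and closest relative of *Ghr*, was 21.4-fold higher in females (log2FC 4.42, adjusted p = 3.50e-26), in 58 of 59 strains, against the opposite direction of *Ghr*. *Socs3*, another cytokine feedback gene, had a log2FC of 0.62, and *Ptpn11*, which encodes the phosphatase SHP2, -0.45. *Stat5a*, outside the naming rule but the neighbour of *Stat5b*, had a log2FC of 0.44 and was higher in 55 of 59 strains. Of 6 tested of 7 other IGF ligands, receptors and carriers, 1 was higher in females (*Igfbp6*, 0.31), 2 were lower, led by the scavenging receptor gene *Igf2r* (-0.23), and 3 did not pass. *Igfbp1*, largely a liver gene, was too low to test.

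Genes that cleave binding proteins or block that cleavage included 2 large female excesses. *Pappa*, a protease known to cut IGFBP4 and so release IGF1, had a log2FC of 1.72 at very low levels (0.438 ± 0.406 against 0.106 ± 0.0620 TPM, SD, n = 59 each). *Stc2*, an inhibitor of that protease, had a log2FC of 1.89 (43.9 ± 34.4 against 11.8 ± 9.37 TPM). Of these 6 genes 3 were higher, 1 lower (*Htra1*, -0.26) and 2 did not pass. Downstream of the IGF1 receptor, 2 of 11 genes were higher in females, 6 lower and 3 did not pass, with a median log2FC of -0.07. The docking protein gene *Irs1* was higher in females (0.60) and *Grb14*, an adaptor that inhibits insulin receptor signalling, had a log2FC of -1.57 and a higher female level in only 2 of 59 strains.

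**Figure D3:**
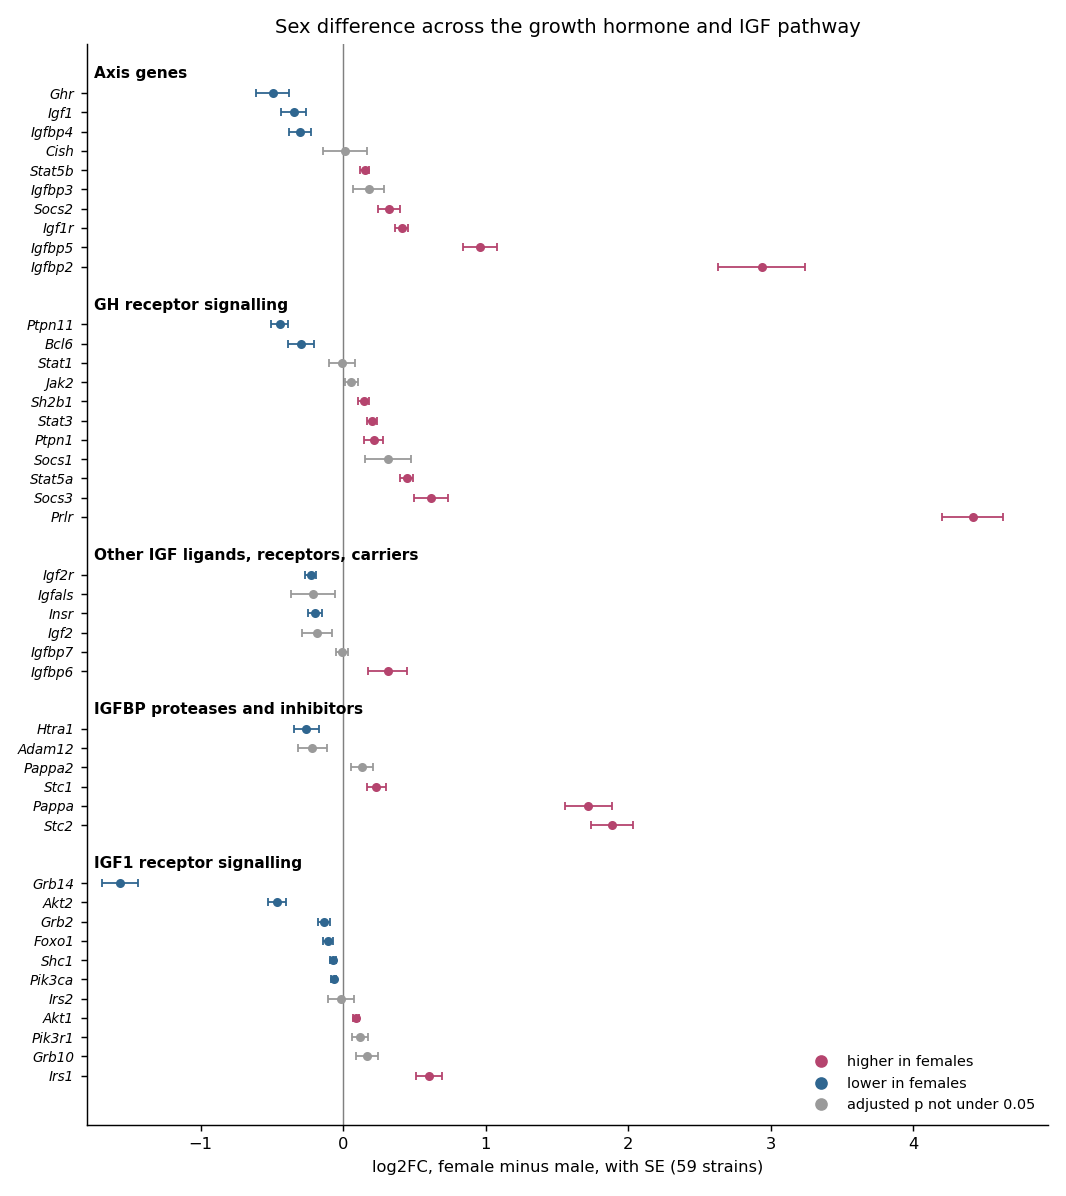
log2FC (female vs. male, 59 strains) with SE for the 10 axis genes and the 4 pathway lists. Colours mark genes higher in females, lower in females, or with an adjusted p of 0.05 or more. *Prlr* (4.42) and *Igfbp2* (2.94, kept by the filter through female libraries alone) lie far to the right and *Grb14* (-1.57) far to the left.

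Strain differences were tested as all strain terms together in the model with sex. *Cish* (adjusted p = 0.00289), *Stat5b* (0.00146), *Igfbp4* (0.00486), *Socs2* (0.0243) and *Igf1r* (0.0321) passed, so 5 of 10 genes did, where 71.2% of all genes tested did. *Ghr* had the weakest strain effect (F = 0.895, adjusted p = 0.671). In the 21 low strains 9 of 10 genes passed, *Ghr* among them (adjusted p = 0.0241) and *Igfbp2* not (background 63.6%), and in the 16 high strains 4 did (*Stat5b*, *Cish*, *Igfbp2* and *Igfbp4*, background 32.3%). With limma-voom 2 of the 10 genes passed, and the calls of *Socs2* (adjusted p = 0.0858), *Cish* (0.245) and *Igf1r* (0.0514) were lost. The share of all genes under limma-voom is not given, so this count has no background beside it.

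Likeness between female and male libraries of the same strain was also measured as a correlation over strains, with permutation p-values (100000 resamples) adjusted over all genes. Over the 59 strains, *Stat5b*, *Cish* and *Igfbp4* were called, 3 of 10 against 52.3% of all genes. Since the libraries form sets, r is given within each. In the 21 low strains *Socs2*, *Igf1* and *Ghr* were called (background 45.2%), and in the 16 high strains *Igfbp2* and *Igfbp4* (20.6%). For *Ghr* in the low strains Pearson's r was 0.50 (permutation p = 0.0210, adjusted p = 0.0473) and Spearman's rho 0.48 (permutation p = 0.0315), and r was 0.31 without the 2 strains farthest from the median. *Socs2* behaved alike, with r of 0.53 (permutation p = 0.0127), rho of 0.44 (p = 0.0469) and 0.32 without those 2 strains. *Igf1* kept its r, at 0.51 (permutation p = 0.0180), rho 0.50 (p = 0.0237) and 0.54 without 2 strains. *Igfbp2* had r of -0.40 in the low strains (permutation p = 0.0740, rho -0.39, p = 0.0860, and -0.32 without 2 strains) and 0.63 in the high strains (permutation p = 0.00890, rho 0.65, p = 0.00772, and 0.42 without 2). In the low strains its male median was 0.119 CPM and its lowest male value 0, where 3 counts are 0.0992 CPM. Its r there therefore rests on male values near the limit of detection, and whether r differed between the sets was not tested.

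**Figure D4:**
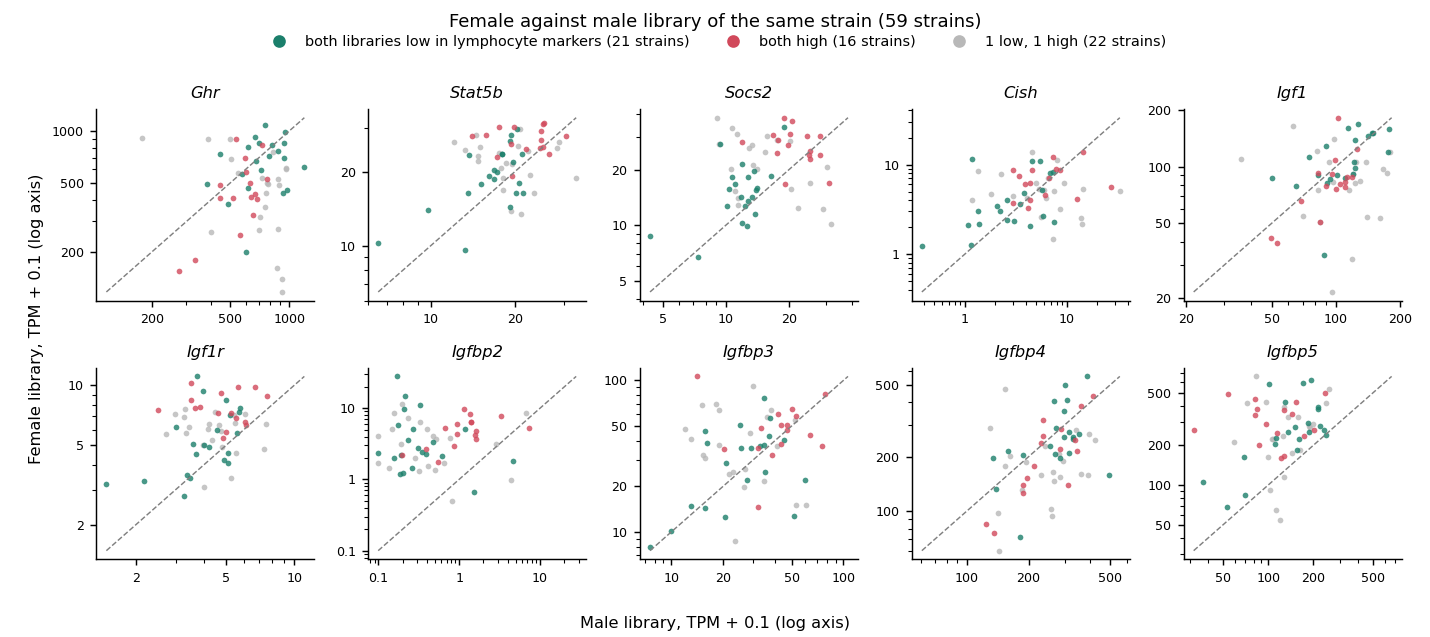
Female against male library of the same strain in TPM + 0.1 on log axes, with 1 point per strain (59) and colours for the lymphocyte sets. The dashed line marks equal levels. Points of *Igfbp2* and *Igfbp5* lie mostly above the line, and the 16 strains high in both libraries lie low for *Ghr* and high for *Socs2*.

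Strain families were compared within each sex. No gene of the 10 passed in females (0 of 10, background 4.39%) or in males (0 of 9 tested, background 9.09%) by edgeR's joint test of the family terms, and limma-voom gave 0 and 0. At an unadjusted p under 0.05 there were 1 and 0, the 1 being *Cish* in females (p = 0.0179, adjusted p = 0.164). The median of *Cish* was 3.88 TPM in 32 BXD females (0.0341 in BXD34/TyJ to 10.8). It was 6.89 TPM in 21 females of other inbred strains (1.17 to 13.8). The BXD females include BXD34/TyJ, the shallowest library, and BXD69/RwwJ, which both carried Y-linked expression, and no contrast without them is given. The groups overlapped, and the contrast of these 2 families alone was -0.73 on the log2 scale (SE 0.217, adjusted p = 0.0270, passed by 8.11% of genes). In males the same contrast was -0.50 (SE 0.303, adjusted p = 0.328, passed by 6.00% of genes), with medians of 4.06 and 6.61 TPM. *Igfbp2* was not tested between families in males because of its low counts. Its male medians were 0.223 TPM in BXD, 1.08 in AXB/BXA and 0.325 in the other inbred strains.

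How the 10 genes varied together was measured within each sex on log2 CPM, over 45 pairs. Over all libraries 23 pairs were called in females (46.3% of all pairs of these genes with a tested gene were) and 28 in males (49.1%). Within the low libraries the numbers were 8 (10.8%) and 2 (8.34%), and within the high libraries 9 (15.4%) and 7 (8.87%). *Igf1r* with *Igfbp5* was the pair called in both sexes within the low libraries. In females r was 0.67 (adjusted permutation p = 0.00102), rho 0.72 and r without the 2 farthest libraries 0.72 (n = 35). In males r was 0.50 (adjusted permutation p = 0.00484), rho 0.52 and r without 2 libraries 0.44 (n = 44). In the high libraries r was 0.66 in females (adjusted permutation p = 0.00783) and 0.33 in males (0.212).

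*Ghr* with *Igf1* was the tightest pair in females. Within the low libraries r was 0.69 (adjusted permutation p = 0.00166, rho 0.68, and 0.63 without 2 libraries), and within the high libraries 0.85 (adjusted permutation p = 0.000112). In males r was 0.36 in the low libraries (adjusted permutation p = 0.1002) and 0.75 in the high ones (0.00117). With the adipocyte markers in females, *Ghr* had r of 0.92 over all libraries and 0.70 over low ones, and *Igf1* 0.76 and 0.28. Whether this pair reflects induction of *Igf1* through the receptor or shared cell content was not tested. *Cish* in low females went with *Igf1r* (r = 0.59) and *Igfbp5* (0.54) and against *Igfbp4* (-0.64). The other pairs called in low females were *Stat5b* with *Igfbp5* (0.54), *Socs2* with *Igf1r* (0.47) and *Ghr* with *Igf1r* (-0.46), and in low males *Igf1r* with *Igfbp3* (0.55). *Igfbp2* and *Igfbp5*, though neighbours in the genome, had r of 0.22 in low females and -0.07 in low males. Many of these values depend on the scale. On log2(TPM + 1) 36 female and 26 male pairs were called in the low libraries, and the sign of r changed in 14 and 18 of 45 pairs, among them *Ghr* with *Igf1r* and *Cish* with *Igfbp4* in females.

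**Figure D5:**
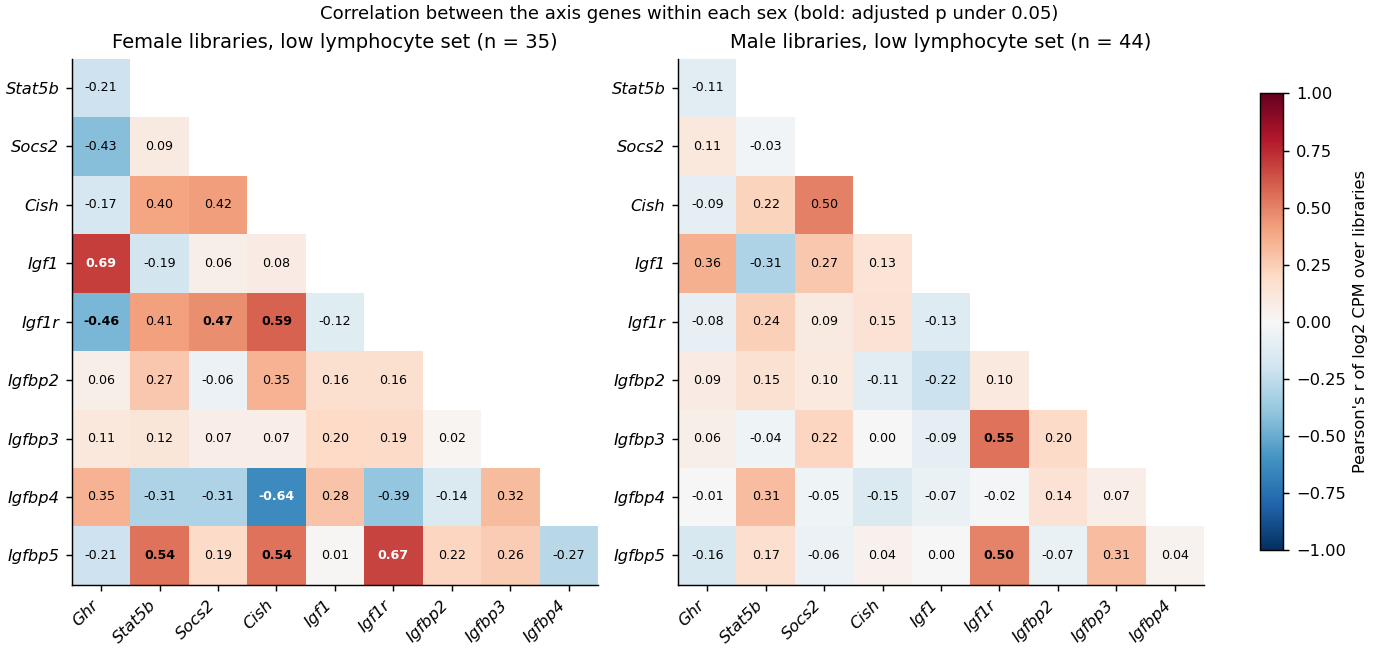
Pearson's r of log2 CPM for each pair of the 10 genes over the libraries low in lymphocyte markers, 35 female and 44 male. Bold values have an adjusted permutation p under 0.05, 8 in females and 2 in males, and *Igf1r* with *Igfbp5* is bold in both.

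For each gene the 3 genes with the highest mean r over the sexes were named, with r given here over the low libraries in females and males. They were chosen for this likeness, so no test is given. *Ghr* was most like *Gnai1* (0.77 and 0.73), *Syap1* (0.82 and 0.69) and *Abcd2*, a peroxisomal fatty acid transporter gene (0.76 and 0.68). *Igf1* was most like *Mcam* (0.63 and 0.60) and the caveolin genes *Cav2* (0.58 and 0.53) and *Cav1* (0.62 and 0.48). *Igf1r* was most like *Mfsd6* (0.76 and 0.71), *Nfat5* (0.71 and 0.75) and *Med13l* (0.64 and 0.66).

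The signalling and feedback genes had other neighbours. *Stat5b* went with *Foxk1* (0.67 and 0.84), *Casc3* (0.66 and 0.78) and *Dpf2* (0.71 and 0.74). *Socs2* went with *Sinhcaf* (0.77 and 0.22), *Ptma* (0.70 and 0.51) and *Trim7* (0.75 and 0.40). *Cish* went with *Nfe2l3* (0.80 and 0.49), *Epm2aip1* (0.78 and 0.47) and *Cdk2* (0.72 and 0.42).

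Among the binding proteins, *Igfbp2* went with *Arg2* (0.66 and 0.33). *Igfbp3* went with *Lrrc8c* (0.58 and 0.57), *Il6ra* (0.69 and 0.49) and *Prps2* (0.46 and 0.70). *Igfbp4* went with *Cyb5a* (0.79 and 0.60), *Timp4* (0.63 and 0.74) and *Sgce* (0.67 and 0.63). *Igfbp5* went with *Enpp3* (0.84 and 0.44), *Tgfb3* (0.72 and 0.38) and *Dact2* (0.57 and 0.66).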

How the data were processed

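iWAT RNA-seq of 141 HMDP libraries was analysed. The authors quantified stranded paired-end reads with kallisto (0.46.1 per the submitters' processing notes) against Ensembl release 97 (GRCm38/mm10) and summed transcripts to genes with tximport. They deposited estimated counts, not normalized between libraries, and TPM values, scaled for transcript length. Of the estimated counts 30.3% were not whole, and they were rounded here. Symbols came from GENCODE M21 for 35856 of 36558 genes. Filtering (filterByExpr by sex), TMM and the quasi-likelihood test of edgeR 4.0.16 (R 4.3.3) were used with strain and sex as terms, Benjamini-Hochberg adjustment over all genes and a threshold of 0.05. The strain term pairs the libraries: deviations of same-strain libraries correlated on average by 0.407 (45 of 59 pairs above 0.1), those of different strains by -0.00714. The pairing comes from the strain label. Correlations used log2 CPM (prior count 2) and 100000 permutations (scipy 1.17.1, numpy 2.4.6). Alternatives used DESeq2 1.42.0 and limma 3.58.1. Fits and correlations were tested on simulated data. All 10 genes, the 3 most alike genes of each, and pathway genes past the threshold with an absolute log2FC of at least 0.5 or leading their list were named, except 2 genes like *Igfbp2* that are not reported here. The genes and lists were chosen with earlier results of these data known. At the median depth 3 counts are 0.0992 CPM, which covers counting error only. P-values measure the spread between single mice of different strains. The low and high lymphocyte sets, divided at 100 summed TPM, the leaving out of 3 strains, and the overlap counts and marker ranges without libraries whose Y-linked expression went against the label were chosen after seeing the data.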

Additional observations from a re-analysis of the deposited data

Results flagged for a closer look

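In the 9 AXB/BXA females, the only group of a size that was checked, 2 of the 10 genes had a highest value farther from the next than Dixon's 95% limit, and chance flags about 1 in 20 groups. Both came from the AXB13/PgnJ library. *Cish* was at 11.5 TPM there and at 2.05 to 6.20 TPM in the other 8, and *Igf1r* at 10.9999 TPM and at 3.47 to 6.79 TPM. The same library gave the largest female excess over its male partner in *Cish* (3.21) and *Igf1r* (1.40) of the 59 strains.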

How the results depend on the processing

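Each sex call among the 9 genes other than *Igfbp2* kept its direction and its side of the threshold under DESeq2, limma-voom and both log2(TPM) fits. The same held under the other scalings and filters, and without NZW/LacJ, AXB12/PgnJ and BXD38/TyJ or CXB11/HiAJ, except that library totals added *Igfbp3*. The filter of 10 counts removed *Igfbp2*, for which no test is given. Without the strain term (no replicate block) every call among these 9 genes was kept, in matched strains and over all libraries, so pairing changed no call. Of all 16765 genes tested in matched strains, 4086 were then higher in females and 4104 lower. In strains low in lymphocyte markers 1 gene, *Ghr*, was lower in females, where 3 had been. Leaving out each strain moved the mean difference of *Cish* between -0.0580 and 0.0510, across 0. Strain calls among the 10 genes numbered 2 with limma-voom (share of all genes not given) and 9 in the low strains (background 63.6%). Female to male correlation called 5 of the 10 genes without the 3 strains, where the share of all genes is not given, so this count has no background beside it. That of *Igfbp2* was 0.626 in the high strains. Pairs called fell to 8 (females) and 2 (males) in low and to 9 and 7 in high libraries, against 36 in low females on log2(TPM + 1), where the share of all pairs is not given. Signs reversed for *Ghr* with *Igf1r*: in females 0.104 on log2(TPM + 1), 0.0506 in high libraries and 0.365 in low ones on TPM, and in males 0.0698 on TPM and 0.545 in low libraries on TPM. They also reversed for *Cish* with *Igfbp4* in low females on TPM (0.0861), for *Stat5b* with *Igfbp5* in males on TPM (0.282, and 0.619 in low libraries), and for *Cish* with *Igfbp5* in low males (0.0427, and 0.210 on TPM). The cause was not tested. Smaller sets hold fewer strains, and in males the counts of *Igfbp2* were near the limit of detection.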
